A study of Mus musculus with 4 samples.

Results

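The 4 genes described here, Serpina3f, Serpina3g, Serpina3m and Serpina3n, belong to a cluster of close copies on mouse chromosome 12 and were taken by their symbols from a lung expression table of 17780 genes. That table lists 8 Serpina3 genes in all, the other 4 being Serpina3b, Serpina3c, Serpina3i and Serpina3k. Lung RNA came from male C57BL/6J mice (C57BL/6 in the labels), 6 to 7 weeks old, that were given vehicle (carboxymethylcellulose), amiodarone at 300 mg/kg, dabigatran etexilate at 60 mg/kg, or both drugs by mouth, 5 times per week. The methods date the left lung to day 26, and the labels give 28 days. Amiodarone is an antiarrhythmic drug known to injure the lung, and dabigatran etexilate is the oral form of the direct thrombin inhibitor dabigatran, so the comparisons ask how the lung's serpin transcripts differed with amiodarone and whether dabigatran went with another level.

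Serpins are protease inhibitors that act once: the target protease cuts an exposed reactive centre loop near the carboxyl end of the serpin, and the complex is then locked and inactive. The Serpina3 genes are the mouse relatives of the lone human gene SERPINA3, which encodes α1-antichymotrypsin, an acute-phase protein of plasma that inhibits granule proteases of neutrophils and mast cells. Acute-phase genes are best known from hepatocytes, where interleukin-6 acting through STAT3, together with glucocorticoids, raises their transcription, and many of them are also transcribed in epithelia and stroma of inflamed lung. Serpina3n, a secreted inhibitor of granzyme B and cathepsin G, is the best studied of the secreted copies, and Serpina3g is an intracellular member known to restrain lysosomal cysteine cathepsins.

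Each treatment group holds 1 library, so there is no replicate, no difference between groups could be tested across animals, and no p-value is given. Values are given as FPKM, a level scaled for both transcript length and library size, which allows levels of different genes to be compared. The unit is not named in the sources used here and was taken from how the values scale with the reads. Estimated reads per library ranged from 17498486 to 18903401. The intervals are exact 95% intervals from the read counts, Poisson for levels and Clopper-Pearson for ratios. They cover counting error only and leave out differences between animals, and sequenced fragments are not independent molecules. The libraries carried the defining transcripts of lung, with summed FPKM of 8 alveolar epithelial markers between 26923.6 and 28875.6.

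Because the copies are so alike, their sequences show how well reads can be told apart. The coding sequences of the reference annotation (GENCODE release M21, GRCm38) were aligned for the longest coding transcript of each gene. Serpina3m and Serpina3n had 85.2% identical bases over 1254 aligned bases, Serpina3f and Serpina3g 87.0% over 744, and the least alike pair, Serpina3g and Serpina3m, 81.9% over 648. The annotated coding sequence of Serpina3g is 744 bases, against 1335 in Serpina3f and 1254 in Serpina3m and Serpina3n. Of the 648 alignment columns filled in all 4 genes, 473 (73.0%) held the same base.

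The differences were not spread evenly. Among 60-base windows with no gap in any of the 4 genes, the one with the fewest shared bases held 30 of 60 identical columns and lay in the last exon of every member, ending 48 bases before the end of the coding sequence in Serpina3m and Serpina3n, 144 before it in Serpina3g and 156 in Serpina3f. The window that was most alike held 57 of 60 identical columns. The least alike of these windows is shown because it carries differences by which the members can be told apart, with capitals at the positions where the 4 members are not all the same. It is on the plus strand of GRCm38 at chr12:104220296-104220355 in Serpina3f, chr12:104241120-104241179 in Serpina3g, chr12:104393817-104393876 in Serpina3m and chr12:104413496-104413555 in Serpina3n.
Serpina3f: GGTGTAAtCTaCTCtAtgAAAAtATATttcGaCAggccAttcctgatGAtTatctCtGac
Serpina3g: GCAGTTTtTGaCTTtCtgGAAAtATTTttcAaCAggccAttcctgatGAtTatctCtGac
Serpina3m: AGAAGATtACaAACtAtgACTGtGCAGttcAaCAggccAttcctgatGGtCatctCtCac
Serpina3n: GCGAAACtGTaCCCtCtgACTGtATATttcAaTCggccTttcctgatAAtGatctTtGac

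**Figure D1:**
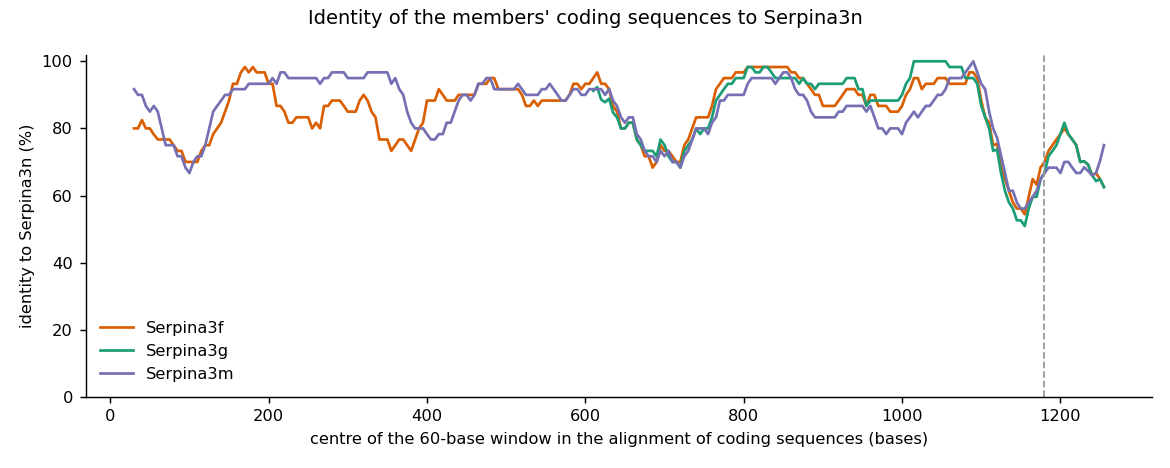
Identity (%) to the coding sequence of Serpina3n in 60-base windows of the alignment, for Serpina3f, Serpina3g and Serpina3m, against the position of the window's centre in the alignment in bases. The dashed line marks the printed stretch, which shared the fewest bases among windows with no gap in any member (30 of 60 columns identical in all 4). Identity to Serpina3n dips lower just before it, in windows with gaps, and the line of Serpina3g begins where its shorter coding sequence begins.

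Most of each transcript could nevertheless be recognised. Of the 50-base windows of their annotated transcripts, 93.1% in Serpina3n, 89.4% in Serpina3f, 84.5% in Serpina3g and 80.9% in Serpina3m occurred in no transcript of another gene. Windows of 100 bases raised these shares to 99.8%, 96.6%, 96.5% and 93.9%. The gene that shared most 50-base windows with Serpina3m was Serpina3k, at 257 windows, and for Serpina3g it was the transcribed pseudogene Serpina3h, at 195. The GENCODE annotation starts Serpina3m at the same base as Serpina3k, chr12:104338486. Some windows that they share may therefore come from overlapping annotation rather than from likeness of copies, and these were not separated. The authors' program divides a read that matches several genes by estimation, which leaves fractions of reads, and in all 4 libraries the estimated reads of the 4 members lay within 0.02 of a whole number, while 12.3% to 12.7% of all genes in a library lay further from one. The length of the reads is not given in the sources used here, so the share of reads that matched more than 1 member is unknown and single members remain less certain than their sum.

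Serpina3n was by far the most abundant member in every library. Serpina3n (gene 20716, chr12:104406646-104414334, RefSeq on GRCm38.p6) stood at 64.98 FPKM in the vehicle library (interval 62.4 to 67.7, from 2315 reads), 118.93 in the amiodarone library (115 to 122, 4535 reads), 70.68 in the dabigatran library (68.0 to 73.5, 2552 reads) and 94.43 in the combined library (91.4 to 97.6, 3634 reads). In the same order of libraries it supplied 90.3%, 85.3%, 87.5% and 87.2% of the members' reads, so the sum of the members is close to a measurement of this gene.

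Serpina3g was the next most abundant member in each library, far below Serpina3n. Serpina3g (gene 20715, chr12:104236147-104241939) stood at 5.03 FPKM in the vehicle library (4.30 to 5.85, 167 reads), 12.20 in the amiodarone library (11.1 to 13.4, 433 reads), 6.84 in the dabigatran library (5.98 to 7.78, 230 reads) and 8.48 in the combined library (7.55 to 9.49, 304 reads). The amiodarone library was highest and the vehicle library lowest, as for Serpina3n.

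The last members were found at few reads. Serpina3m (gene 20717, chr12:104387157-104394259) stood at 1.74 FPKM in the vehicle library (1.29 to 2.30, 49 reads), 4.59 in the amiodarone library (3.84 to 5.45, 131 reads), 2.30 in the dabigatran library (1.77 to 2.94, 64 reads) and 3.90 in the combined library (3.22 to 4.68, 115 reads). Serpina3f (gene 238393, chr12:104214544-104221129) stood at 0.86 FPKM in the vehicle library (0.592 to 1.21, 33 reads), 5.29 in the amiodarone library (4.61 to 6.04, 217 reads), 1.93 in the dabigatran library (1.5 to 2.44, 70 reads) and 2.93 in the combined library (2.42 to 3.51, 116 reads). Serpina3f was below Serpina3m in the vehicle library, and in the amiodarone library it was above it with intervals that overlap.

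**Figure D2:**
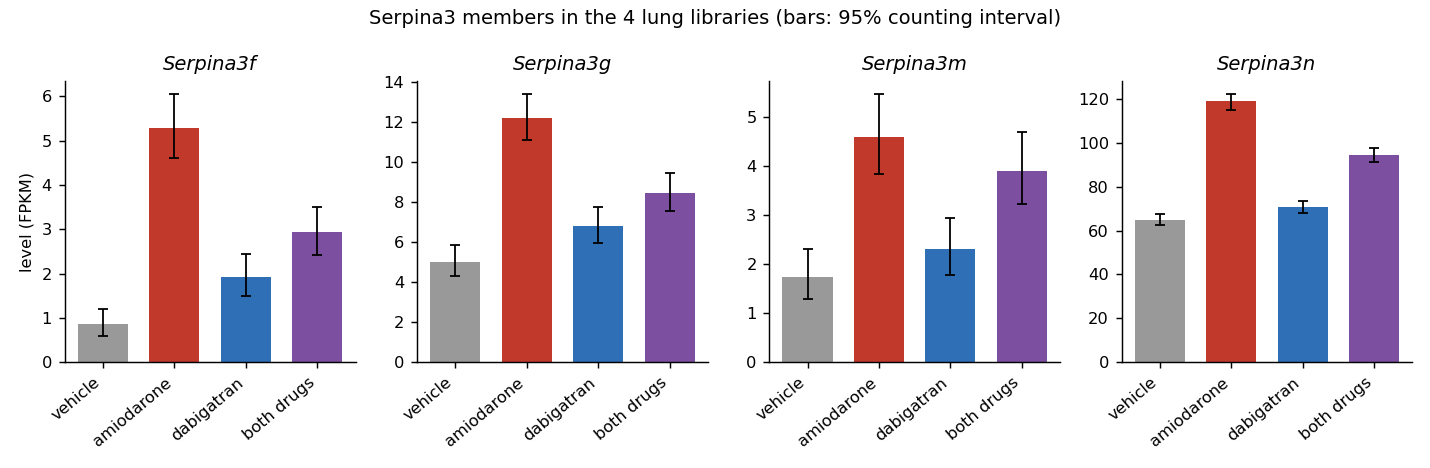
Level of each member in FPKM in the vehicle, amiodarone, dabigatran and combined libraries, 1 library each, on separate axes that start at 0; the error bars are exact 95% intervals of the read counts. In every panel vehicle is lowest and amiodarone highest, and Serpina3n reaches 118.93 where the other members stay at or below 12.20.

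All members had the order vehicle, dabigatran, both drugs, amiodarone, from lowest to highest. That order held for 4 of 4 members and for 6.74% of the 13536 genes that reached 1 FPKM in any library. Neighbours in that order differed beyond counting error for Serpina3n, Serpina3g and Serpina3f. For Serpina3m, vehicle and dabigatran did not differ beyond it, nor did both drugs and amiodarone.

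Summed over the members, the levels in the vehicle, amiodarone, dabigatran and combined libraries were 72.61, 141.01, 81.75 and 109.74 FPKM. These levels came from 2564, 5316, 2916 and 4169 reads. Without Serpina3n the sums were 7.63, 22.08, 11.07 and 15.31 FPKM.

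With amiodarone alone, every member was higher than with vehicle. The ratio of FPKM was 6.15 for Serpina3f (4.25 to 9.16), 2.64 for Serpina3m (1.89 to 3.74), 2.43 for Serpina3g (2.02 to 2.92) and 1.83 for Serpina3n (1.74 to 1.93), and 1.94 for the sum (1.85 to 2.04). Serpina3f, the member lowest with vehicle, had the highest ratio and Serpina3n, the most abundant one, the lowest, but the vehicle level is also the denominator of these ratios. Serpina3n made up a smaller share of the members' reads with amiodarone than with vehicle. By size, 4 of 4 members were higher by at least 1.5-fold and none was lower, where 5.49% of the 13402 genes that reached 1 FPKM in either of the libraries were higher and 7.22% lower. All 4 ratios had intervals above 1, as did those of 19.6% of genes. Serpina3f, at 0.86 FPKM with vehicle, entered these counts only through its level of 5.29 with amiodarone. Serpina3g, Serpina3m and Serpina3n were singled out by the study in these same libraries, so the direction of these 3 is not independent evidence. In whole lung, a higher level per cell and more cells of an expressing type cannot be told apart.

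With dabigatran alone the members lay nearer to the vehicle level, except for Serpina3f. Serpina3f was 2.24 times its vehicle level (1.46 to 3.51) and was the 1 member of 4 past 1.5-fold. The background was 1.45% of genes higher and 1.52% lower by as much. Serpina3f, at 0.86 FPKM with vehicle, entered this count only through its level of 1.93 with dabigatran. Serpina3g had a ratio of 1.36 (1.11 to 1.67), Serpina3m of 1.32 (0.897 to 1.96) and Serpina3n of 1.09 (1.03 to 1.15). These differences were small but pointed upward, and 3 of 4 members, all but Serpina3m, were higher beyond counting error, as were 15.2% of genes. The sum was 1.13 times the vehicle level (1.07 to 1.19).

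When dabigatran was added to amiodarone, the members were lower than with amiodarone alone. Serpina3f stood at 0.554 of its amiodarone level (0.438 to 0.697), Serpina3g at 0.695 (0.598 to 0.807), Serpina3n at 0.794 (0.760 to 0.830) and Serpina3m at 0.850 (0.656 to 1.10), and the sum at 0.778 (0.747 to 0.811). Serpina3f was the 1 member of 4 that was lower by at least 1.5-fold, where 2.07% of genes were lower and 2.46% higher by as much. Beyond counting error 3 of 4 members were lower, all but Serpina3m, as were 15.0% of genes. The summed level with both drugs lay between that with amiodarone and that with vehicle.

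Against dabigatran alone, all 4 members were higher with the combined treatment. The ratio was 1.70 for Serpina3m (1.24 to 2.34), 1.52 for Serpina3f (1.12 to 2.07), 1.34 for Serpina3n (1.27 to 1.41), 1.24 for Serpina3g (1.04 to 1.48) and 1.34 for the sum (1.28 to 1.41). Serpina3f and Serpina3m were past 1.5-fold, 2 of 4 members, and none was lower, where 4.43% of genes were higher and 4.39% lower. All 4 intervals lay above 1, against 19.5% of genes. The ratio of Serpina3f, close to 1.5, rests on 70 and 116 reads.

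**Figure D3:**
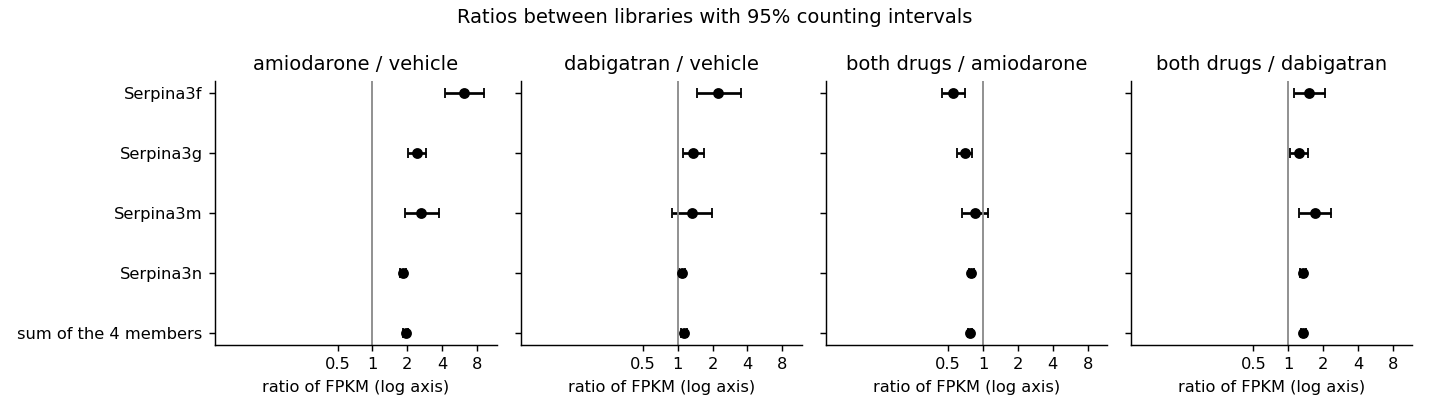
Ratio of FPKM between libraries on a log axis, for each member and for the sum of the 4 members, in the 4 comparisons; bars are exact 95% counting intervals and the vertical line marks a ratio of 1. With amiodarone against vehicle all points lie to the right of 1 (1.83 to 6.15), and with both drugs against amiodarone all lie to the left (0.554 to 0.850), the bar of Serpina3m crossing the line.

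The difference from vehicle with both drugs was also set against that with amiodarone alone, and these quantities share the vehicle library. In FPKM it came to 46.7% of the amiodarone difference for Serpina3f, 48.1% for Serpina3g, 54.6% for Serpina3n and 75.8% for Serpina3m, and 54.3% for the sum. With dabigatran alone it came to 13.4% of the amiodarone difference for the sum, from 10.6% for Serpina3n to 25.2% for Serpina3g. A level above vehicle with dabigatran alone together with a level below amiodarone with both drugs, comparisons that share no library, was found for 4 of 4 members and for 23.1% of genes, and with both differences beyond counting error for 3 of 4 members and 4.54% of genes.

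The other genes of the cluster in the table were compared in the same way. Serpina3c, at lower coordinates than Serpina3f, stood at 4.91, 5.81, 5.93 and 6.04 FPKM in the vehicle, amiodarone, dabigatran and combined libraries, and its ratio of amiodarone to vehicle was 1.18 (0.943 to 1.49). Serpina3i stood at 0.65, 1.0, 0.20 and 0.58 FPKM in the same order, from 25, 33, 8 and 24 reads. Its ratio of amiodarone to vehicle was 1.54 (0.887 to 2.70), and it was lower with dabigatran than with vehicle, at a ratio of 0.308 (0.120 to 0.704). With both drugs Serpina3i stood at 0.580 of its amiodarone level (0.328 to 1.01) and at 2.90 times its dabigatran level (1.26 to 7.47). Except with dabigatran alone, these directions were those of the members. Serpina3b (0.17, 0.00, 0.20 and 0.09 FPKM) and Serpina3k (0.11, 0.03, 0.11 and 0.07 FPKM) had at most 7 reads in a library and are given as values only. Neither Serpina3c nor Serpina3i was higher with amiodarone beyond counting error, and Serpina3i and Serpina3k lie between Serpina3g and Serpina3m on the chromosome. Whether the members differ from these genes in response was not tested.

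**Figure D4:**
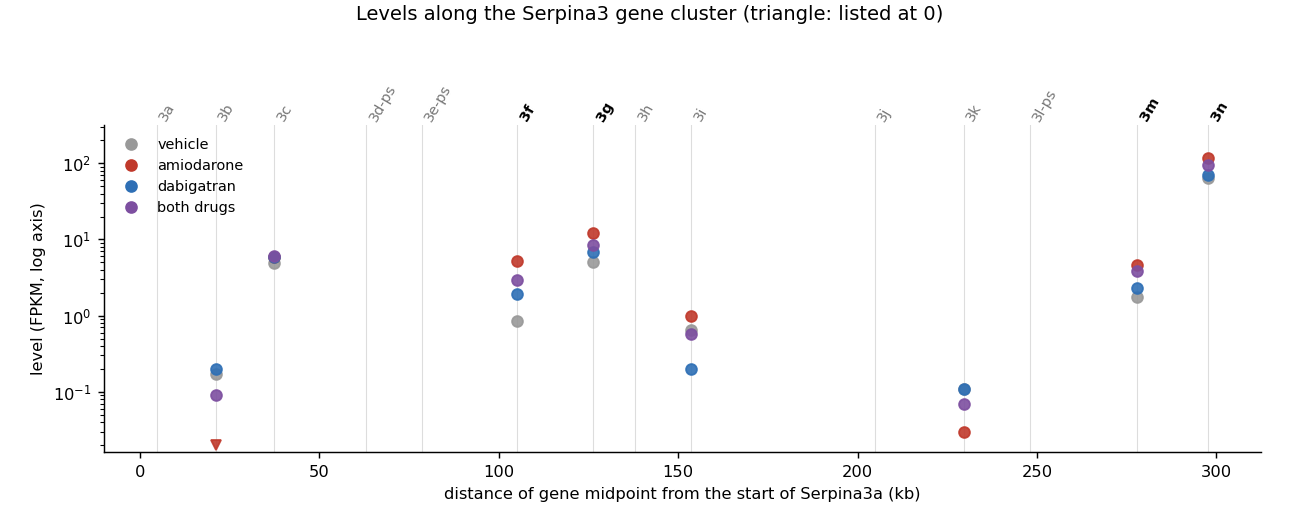
Level in FPKM on a log axis of every Serpina3 gene of the table in each library, against the distance of the gene's midpoint from the start of Serpina3a in kb; names without points are genes of the cluster that were not analysed here, ps marks a pseudogene, and a triangle marks a gene listed at 0. The members (bold) have amiodarone on top and vehicle at the bottom, and the 4 points of Serpina3c lie together between 4.91 and 6.04 FPKM.

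The sequences just upstream of the members were set against these levels. RefSeq promoters (250 bases before to 50 after the annotated start, GRCm38.p6) were found for 3 of the 4 members, with 2 starts for Serpina3f. The motifs searched, on both strands, were TTCNNNGAA for STAT factors, TTNNGNAA for C/EBP factors, TGANTCA for AP-1, and the NF-kappaB motif. The STAT letters occurred once in the promoter of Serpina3f, 121 bases before the first of its starts, and once in that of Serpina3g, 33 bases before its start, and 8.29% of all 32817 promoters hold them. The C/EBP letters had 3 matches in Serpina3f, 3 in Serpina3g, 1 of them after the start, and 2 in Serpina3n. At least 1 match is held by 40.7% of all promoters, and the number of matches per promoter was not compared. The NF-kappaB motif was matched in Serpina3g alone, 85 bases before the start and overlapping a C/EBP match, and is held by 8.46% of promoters. AP-1 letters were in none of the members' promoters and in 7.81% of all.

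Aligned with each other, the promoters of Serpina3f and Serpina3g had 81.3% identical bases, while Serpina3n had 64.9% with Serpina3f and 65.9% with Serpina3g. The aligned stretches around the STAT letters are shown because the members differ there, with the 9 aligned letters in capitals. They are on the plus strand of GRCm38.p6 at chr12:104214398-104214456 in Serpina3f, chr12:104236089-104236146 in Serpina3g and chr12:104406560-104406618 in Serpina3n.
Serpina3f: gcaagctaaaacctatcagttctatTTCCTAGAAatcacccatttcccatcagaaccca
Serpina3g: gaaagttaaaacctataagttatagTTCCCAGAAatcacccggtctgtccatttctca
Serpina3n: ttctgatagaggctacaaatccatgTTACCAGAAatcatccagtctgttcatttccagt
Counted from 1 at the first capital, Serpina3n differs from Serpina3g by C3A, and from Serpina3f by C3A and T5C, so the letters TTCNNNGAA are not in its window. A match in the reference is a description of letters, and binding was not measured.

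Other acute-phase genes give the setting of these levels. Of 22 listed acute-phase genes, 12 reached 1 FPKM with vehicle or amiodarone, and of these 6 were higher with amiodarone by at least 1.5-fold and 1 was lower. Of all genes tested, 5.49% were higher and 7.22% lower by as much. The median difference of log2(FPKM + 1) was 0.67 for the list, 1.08 for the 4 members and −0.05 for all genes tested. Lcn2, which encodes the iron-carrier-binding lipocalin-2, stood at 157.16, 920.90, 154.84 and 320.13 FPKM in the vehicle, amiodarone, dabigatran and combined libraries. Itih4, an inter-α-trypsin inhibitor heavy chain, stood at 25.49, 82.66, 25.88 and 45.86, and Lrg1, a secreted leucine-rich glycoprotein, at 94.71, 222.51, 72.02 and 138.86. These genes were highest with amiodarone and intermediate with both drugs, and with dabigatran alone Lcn2 (ratio 0.985, 0.928 to 1.05) and Itih4 (1.02, 0.942 to 1.09) lay within counting error of vehicle and Lrg1 below it (0.760, 0.713 to 0.811). The others higher with amiodarone were expressed at low levels: Saa3, an amyloid A protein (1.93, 8.0, 1.19 and 6.02 FPKM), the orosomucoid Orm1 (1.19, 3.92, 0.86 and 0.73) and the fibrinogen chain Fgg (0.28, 1.68, 0.38 and 0.64). Fgg had the highest ratio of the list, with 8 reads in the vehicle library, and entered the count only through its level with amiodarone.

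Not every acute-phase gene was higher. The iron regulator Hamp was the gene that was lower, at 61.01 FPKM with vehicle and 28.64 with amiodarone. Haptoglobin (Hp), the most abundant of them, stood at 880.83 and 748.63, complement C3 at 275.45 and 253.74, ceruloplasmin (Cp) at 75.07 and 65.64, Lbp at 34.10 and 41.70, and hemopexin (Hpx) at 1.32 and 1.39, all within 1.5-fold. Within that range, Hp, C3 and Cp were lower beyond counting error, Lbp was higher beyond it, and Hpx did not differ beyond it. With both drugs against amiodarone, 5 of 12 tested genes of the list were lower by at least 1.5-fold and 1 was higher, C3 at 381.60 FPKM, with a median of −0.39 for the list, −0.40 for the members and 0.03 for all genes. Of all genes tested, 2.07% were lower and 2.46% higher by as much. Among the lower genes, Orm1 and Fgg entered the count only through their level with amiodarone. With dabigatran alone the median was −0.09 for the list, 0.32 for the members and 0.00 for all genes, and against dabigatran the combined treatment had medians of 0.26 for the list and 0.42 for the members.

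Genes of the signals known to induce Serpina3 genes differed by list, and whether these signals acted on the members was not tested. Among all genes tested, 5.49% were higher with amiodarone by at least 1.5-fold and 7.22% lower, with a median of −0.05. Of 8 listed genes of the glucocorticoid receptor and its targets, 6 were higher with amiodarone and none was lower, with a median of 1.37. Fkbp5, a receptor co-chaperone and a classic target, had the highest ratio, at 4.50, 31.21, 4.51 and 20.66 FPKM, and the receptor gene Nr3c1 the lowest, at 28.83 with vehicle and 26.40 with amiodarone. This list had a median of 0.03 with dabigatran alone and of −0.32 with both drugs against amiodarone. Of 15 tested genes of the interleukin-6 family and STAT3 list, 3 were higher and 1 lower, with a median of 0.10. The feedback inhibitor Socs3, at 12.29, 38.66, 12.61 and 26.29 FPKM, had the highest ratio and the cytokine Lif, at 1.57 with vehicle and 0.96 with amiodarone, the lowest. Lif entered the count only through vehicle, and Osm, 1 of the higher genes (0.77 and 1.53), only through amiodarone. The IL-1, TNF and NF-kappaB list had 2 of 15 higher and 1 lower, with a median of 0.13, from Rel (1.62 and 0.84) to Il1b (5.05 and 14.18). Rel, the lower gene, entered the count only through its level with vehicle.

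**Figure D5:**
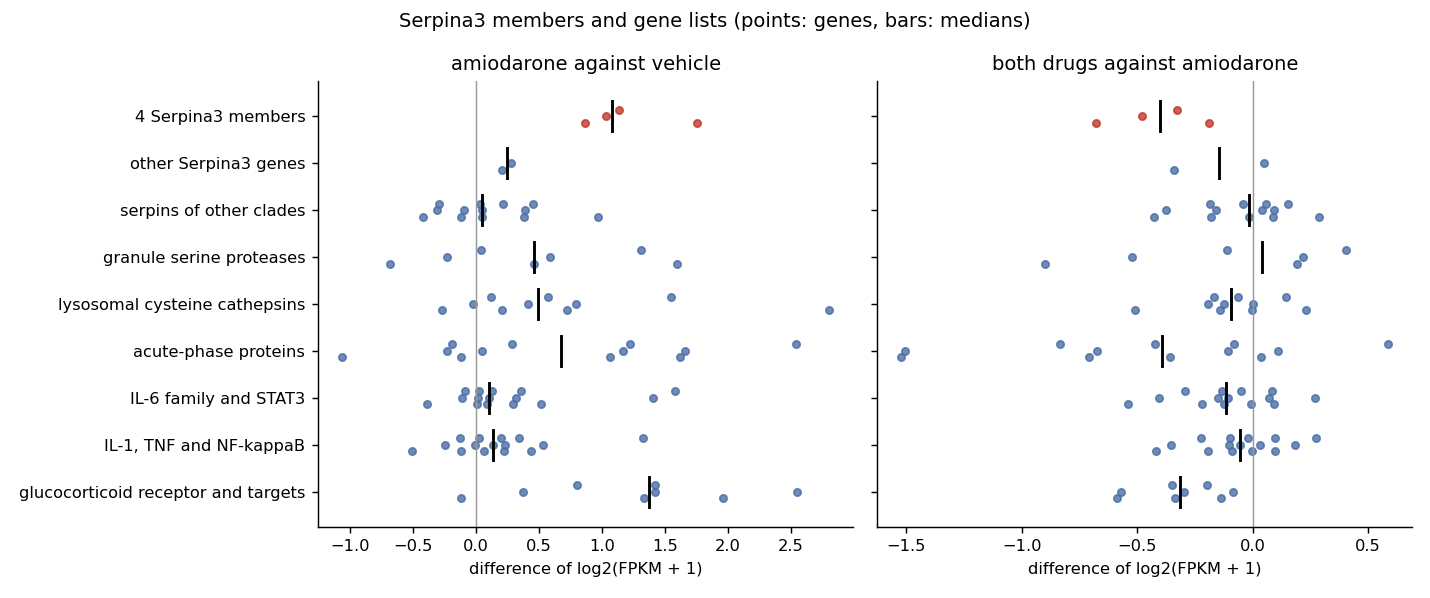
Difference of log2(FPKM + 1) for each tested gene (points) of the members and of 8 gene lists, with black bars at the medians, for amiodarone against vehicle and for both drugs against amiodarone. The members have medians of 1.08 and −0.40, the acute-phase list 0.67 and −0.39, and the glucocorticoid list 1.37 and −0.32.

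Genes of protease classes that include known targets of these serpins were measured as well, though not every listed gene encodes a known target. Of 7 tested granule serine protease genes, 3 were higher with amiodarone and 1 lower, with a median of 0.46. Of these, Gzmk and Prtn3 entered the count only through their level with amiodarone, and Klk1, the lower gene, only through vehicle. Among all genes tested, 5.49% were higher by at least 1.5-fold and 7.22% lower, with a median of −0.05. Gzmb, the granzyme inhibited by Serpina3n, stood at 2.93, 10.85, 7.53 and 7.25 FPKM in the same order of libraries. Gzma stood at 24.56, 34.19, 44.77 and 39.94, Gzmk at 0.08, 1.67, 1.53 and 0.43, Prtn3 at 0.56, 1.34, 0.43 and 1.67, the mast cell chymases Cma1 at 1.38, 1.03, 1.91 and 1.69 and Mcpt4 at 1.53, 1.6, 1.03 and 1.41, and the kallikrein Klk1 at 1.46, 0.53, 1.12 and 0.55. With dabigatran alone 3 of 6 tested genes, the granzymes Gzma, Gzmb and Gzmk, were higher by at least 1.5-fold, with a median of 0.57. Among all genes tested 1.45% were higher and 1.52% lower by as much, with a median of 0.00. Gzmk had 1 read with vehicle and entered this count only through its level with dabigatran. Cathepsin G (Ctsg) and elastase (Elane) transcripts had at most 1 read in a library. Of 10 lysosomal cysteine cathepsins, the class met by Serpina3g, 4 were higher with amiodarone and none lower, with a median of 0.49, from Ctsw (4.80 and 3.79 FPKM) to Ctsk (9.74 and 73.93).

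Serpins outside the Serpina3 genes were counted in the same way. Of 13 tested serpins of other clades 2 were higher and none lower, with a median of 0.05. The higher ones entered the count only through their level with amiodarone. Of all genes tested, 5.49% were higher and 7.22% lower. The serpins of other clades ranged from Serpinh1 (144.92 and 107.61 FPKM) to Serpinb9b (0.18 and 1.31, from 6 and 46 reads). Serpina9 was the only other clade A serpin of 14 listed that reached 1 FPKM, at 2.44 with vehicle and 1.6 with amiodarone. None of these counts was tested against that of the members.

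Markers of cells that could carry the transcripts moved with the members in part. Summed FPKM of 9 neutrophil markers was 92.5, 597.3, 69.6 and 432.7 in the vehicle, amiodarone, dabigatran and combined libraries, with 8 of 9 above vehicle with amiodarone, 2 with dabigatran and 9 with both drugs. Ly6g (0.07 FPKM with vehicle, from 1 read, and 1.39 with amiodarone) had the highest ratio of that list. Ngp (1.14 and 0.92) had the lowest. The sum of 10 macrophage markers was 3579.7, 5815.0, 3901.8 and 5760.6, with 10, 8 and 10 of 10 above vehicle. Lyz2 supplied most of that sum (3396.43, 4906.82, 3692.63 and 4617.72 FPKM), and in contrast to the members the median macrophage marker was higher with both drugs than with amiodarone, by 0.19 in log2(FPKM + 1), with 2 of 10 past 1.5-fold and none lower by as much. Of all genes tested, 2.46% were higher and 2.07% lower in that comparison. Among macrophage markers, the ratio of amiodarone to vehicle varied. Chil3 had the highest ratio of amiodarone to vehicle (90.27, 731.20, 113.43 and 940.25 FPKM) and Csf1r the lowest (38.67 and 40.69 with vehicle and amiodarone). Their part in the members' levels was not tested. Hepatocyte markers summed to 22.2, 12.2, 29.7 and 8.9 for 9 genes, with Cyp2e1 supplying much of the sum (10.98, 9.25, 22.57 and 5.34 FPKM). Among them Tat, a liver enzyme gene with 8 reads in the vehicle library, had the highest ratio of amiodarone to vehicle (0.20, 1.63, 0.39 and 0.80). Fabp1 had the lowest (5.79, 0.25, 5.46 and 1.58). Albumin (Alb) was at 2.13, 0.29, 0.14 and 0.16 FPKM, and Ttr and Cps1 were listed at 0 in the amiodarone and in the combined library. Fibroblast markers summed to 396.6, 314.2, 451.5 and 347.8 and airway club cell markers to 130281.5, 77815.6, 104459.4 and 101832.4, both lowest with amiodarone. Scgb1a1 supplied most of the club cell sum. The club cell gene Scgb3a2 (1271.86 with amiodarone and 1185.15 with both drugs) and the fibroblast gene Lum (2.51 and 1.96) were instead lowest with both drugs. The other genes of these lists were lowest with amiodarone. Endothelial sums lay between 800.9 and 1010.3, mast cell and basophil sums between 72.3 and 82.1, and T and NK cell sums between 35.5 and 52.0, the last being highest with dabigatran. In the other cell lists the highest and lowest ratios of amiodarone to vehicle were those of Tcf21 (49.06 and 48.04 FPKM) and Lum (5.14 and 2.51) for fibroblasts, Cyp2f2 (4044.03 and 2549.45) and Scgb1a1 (124168.14 and 73994.27) for club cells, and Cdh5 (251.44 and 291.20) and Kdr (78.03 and 58.20) for endothelium. They were Hdc (41.15 and 36.90) and Kit (40.24 and 35.04) for mast cells and basophils, Cd4 (3.16 and 4.58) and Cd8a (3.25 and 2.05) for T and NK cells, and Sftpb (3667.32 and 4235.02) and Abca3 (78.04 and 68.46) for alveolar epithelium.

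Among 7417 genes outside the members with at least 10 FPKM in a library, the 5 whose 3 differences from vehicle in log2(FPKM + 1) were nearest to those of Serpina3n were Rap1gap, Pim1, Serinc3, Ackr2 and Abca1. The distance, over 3 values that share the vehicle library, was 0.0405 for Rap1gap, an inactivator of the GTPase Rap1 (16.3, 30.6, 18.3 and 24.2 FPKM with vehicle, amiodarone, dabigatran and both drugs). It was 0.0560 for the kinase gene Pim1 (14.2, 26.3, 15.0 and 20.5), 0.0612 for the membrane protein gene Serinc3 (364, 659, 379 and 522), 0.0641 for Ackr2, a scavenging chemokine receptor (15.8, 29.9, 17.7 and 24.1), and 0.0700 for Abca1, a cholesterol exporter (10.4, 20.1, 11 and 16). The other members lay further from Serpina3n, at 0.379 for Serpina3m, 0.392 for Serpina3g and 1.18 for Serpina3f, in a measure that grows with the size of the differences.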

How the data were processed

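The authors sequenced poly(A) RNA by DNBseq, mapped clean reads to GRCm38.p6 with HISAT and to reference gene sequences with Bowtie2, and estimated expression with RSEM. The deposited table holds, per gene and library, an estimated count and a normalized value from the authors' RSEM run. No unit is named for the latter, and the deposited values behave as FPKM. Another 8 columns hold means of 2 libraries and were not used. The authors' log transformation is not in these values.

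The 4 members and the 18 gene lists were chosen with earlier results of these data known; a further list is not reported here. Genes that reached 1 FPKM in either of the libraries were counted, at 1.5-fold. A gene under 1 FPKM in a library thus entered a count only through the other library. Reads were rounded to whole numbers for intervals. List genes named are those with the highest and lowest ratio of amiodarone to vehicle, and every acute-phase, granule protease and Serpina3 gene with at least 1 FPKM. Ctsg, Elane, Serpina3b, Serpina3k, Lyz2, Cyp2e1, Alb, Ttr, Cps1, Osm and Scgb3a2 were added with their values known. Alternatives were a 2-fold threshold, pseudocounts of 1 and 0.1, a filter of 5 FPKM or none, median-ratio scaling, reads scaled to library totals, and other sums; single-member ratios from scaled reads were added after seeing the data. Analyses used Python 3.11.15, scipy 1.17.1, pandas 2.3.3 and MAFFT 7.526.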

Additional observations from a re-analysis of the deposited data

Results flagged for a closer look

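The difference between the libraries with and without dabigatran pointed in opposite directions with and without amiodarone, for each of the 4 members. The same directions, above vehicle with dabigatran alone and below amiodarone with both drugs, held for 23.1% of genes. The share with opposite directions either way was not counted. On the log2 scale of FPKM, Serpina3f was higher by 1.17 with dabigatran than with vehicle and had −0.85 with both drugs against amiodarone, a change between the contrasts of −2.02. The corresponding change was −0.97 for Serpina3g (0.44 and −0.52), −0.64 for Serpina3m (0.40 and −0.24) and −0.45 for Serpina3n (0.12 and −0.33). For the sum it was −0.53 (0.17 and −0.36). With 1 library in each group, the difference between the contrasts was not tested, and both contrasts of Serpina3m lay within counting error.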

How the results depend on the processing

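No ratio of the sum or of a single member changed direction under any alternative, while the counts, taken in either direction, could not show such a change. In all, 31 of 40 recomputed sums and counts and 32 of 32 single-member ratios stayed near the reported value. Summing the members without Serpina3n gave ratios of 2.89 (reported 1.94) for amiodarone against vehicle, 1.45 (1.13) for dabigatran against vehicle and 0.693 (0.778) for both drugs against amiodarone, because Serpina3n then no longer outweighs the other members. The count of members past 1.5-fold with amiodarone against vehicle fell from 4 to 3 at 2-fold, without Serpina3n. It also fell to 3 with a filter of 5 FPKM, which leaves out Serpina3m. Both of these counts were taken as near the reported value. The count with dabigatran against vehicle fell from 1 to 0 with the filter of 5 FPKM, which leaves out Serpina3f. That of both drugs against amiodarone fell from 1 to 0 at 2-fold. The count for both drugs against dabigatran fell from 2 to 0 at 2-fold, with 1 added to the values and with the filter of 5 FPKM, and to 1 with 0.1 added. Scaling factors by the median ratio lay between 0.976 and 1.01. No paired analysis was possible because each group holds 1 library, and for the same reason no replicate could be left out. Depth limits Serpina3f and Serpina3m most, at 33 and 49 reads with vehicle.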
